A study of Mus musculus with 2 samples.

Results

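Ribosomal protein genes were taken as every gene whose symbol is Rpl or Rps followed by a digit, leaving out symbols with -ps (named pseudogenes) and the Rps6k kinases. This gave 83 of the 28692 genes in the deposited count matrices, from 109 symbols before the exclusions. By name, 73 were core proteins of the cytosolic ribosome, 43 of the large (60S, Rpl) and 30 of the small (40S, Rps) subunit. Another 9 were paralogs or copies (Rpl3l, Rpl6l, Rpl7l1, Rpl10l, Rpl22l1, Rpl36al, Rpl39l, Rps27l and Rps27rt). The last, Rps19bp1, encodes a protein that binds Rps19 and is no part of the ribosome. They lay on 19 chromosomes, and 4 of them (Rpl10, Rpl36a, Rpl39 and Rps4x) were X-linked.

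The cytosolic ribosome translates nuclear mRNAs, and each core protein is needed in a fixed number of copies per subunit, so that the genes are usually transcribed at high and coordinated levels. Their mRNAs begin with a C followed by a run of pyrimidines, the 5′ terminal oligopyrimidine tract, through which the kinase mTOR controls their translation with growth signals. Beta cells of the pancreatic islet devote much of their translation to proinsulin, while alpha cells make proglucagon and delta cells prosomatostatin.

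The series compares islets of BcBKO mice, described as a beta-cell-specific ablation and associated with Pdx1-cre, a recombinase driven by a promoter of the embryonic pancreas and adult beta cells, with islets of flox/flox mice. Each group was 1 single-cell library of islets pooled from at least 3 mice, dispersed with TrypLE and counted by tags at the 3′ end with unique molecular identifiers (UMIs, counted RNA molecules). Such tags do not scale with RNA length, so levels of different genes were set side by side as counted. No correction was made for reads shared with copies or for other differences in capture between genes. Age, sex, strain and the deleted exons are not given in the labels. With 1 library per genotype there is no replicate of a genotype and no test between genotypes, and intervals are 95% intervals for counting error only.

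The library labelled BcBKO held 178647270 UMIs in 10775 barcodes and the flox/flox library 167670996 UMIs in 9438 barcodes, and 23 barcode sequences occurred in both. Cells were classed by fixed thresholds on hormone and marker UMIs, and cells that met more than 1 class rule were left out. This gave 3058 beta, 634 alpha, 308 delta, 996 endothelial, 163 mural and 331 macrophage cells in the library labelled BcBKO. The flox/flox library gave 2750 beta, 377 alpha, 242 delta, 1178 endothelial, 223 mural and 422 macrophage cells. Cells left out for meeting both the endothelial and the mural rule numbered 498 in the library labelled BcBKO and 569 in the flox/flox library. They outnumbered the mural cells kept and were deeper, with median UMIs of 9533 and 11648 against 3611 and 4375 in those libraries. Unless stated otherwise, mural values describe only cells that met the mural rule alone. Marker genes not used by the rule had their highest summed level in their own class for all 6 classes in both libraries. Smarcd3, which encodes the BAF60C subunit that the series title names, had 0.610 CPM (counts scaled to 1000000 UMIs of the class; 71 UMIs) in beta cells of the library labelled BcBKO and 0.374 CPM (45 UMIs) in those of the flox/flox library. The gene was thus not lower where the label places the ablation, and that library is written as the library labelled BcBKO. A 3′ tag checks the label only where it lies in the deleted part, which the labels do not give.

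Core genes were all detected, at levels that spanned 16.7-fold. Their mean over the 12 sums of UMIs (6 classes in each library) ran from 191 CPM to 3192 CPM with a median of 1320 CPM. The highest were Rps29 (ENSMUSG00000034892; chromosome 12, 69157722 to 69159186, minus strand; 3192 CPM), Rps24 (2317 CPM), Rpl37a (2220 CPM), Rpl41 (2196 CPM), which encodes a very short basic peptide of the large subunit, and Rps21 (2070.1 CPM). The lowest members that reached 20 CPM in any sum were Rps27l (238 CPM), Rpl23a (191 CPM), which encodes a protein near the exit of the peptide tunnel, Rpl7l1 (38.7 CPM), Rps27rt (35.3 CPM) and Rps19bp1 (25.6 CPM). Rpl23a has 14 named pseudogene copies in GENCODE M21, and reads shared with such copies may not be counted. In all, 79 members reached 20 CPM somewhere. Of the other 4, Rpl6l had 1412 UMIs in the 12 sums, Rpl3l 20, Rpl39l 12 and Rpl10l none.

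The order of the members was much alike in all classes. Across the 83 members, as a description of genes within 1 library, Spearman's rho between 2 classes lay between 0.876 (alpha and macrophage, library labelled BcBKO) and 0.986 (alpha and delta, same library). For the same class in both libraries it lay between 0.981 (mural) and 0.995 (beta). All classes of a library share its preparation and sequencing.

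The start sites of some genes named below are shown to set paralogs beside their core partner and to show where the pyrimidine tract stands. These genes were picked by hand and do not represent the set, and Rpl41 and Rps12 are not among them. RefSeq promoters (GRCm38.p6) matched 63 of the 83 members. Each line gives 10 bases before the annotated start and the 20 bases from it, 5′ to 3′ on the gene's strand, with a C at the start and the C or T letters that follow it in capitals where there are at least 4.
Rpl36al (chr12:69184048-69184077, minus strand): ccgtcgctcaggttcagttccgacttccgc
Rpl36a (chrX:134585644-134585673, plus strand): cccaggcaccgcctataaacttccgttgcg
Rpl22l1 (chr3:28805498-28805527, plus strand): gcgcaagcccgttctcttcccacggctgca
Rpl22 (chr4:152325716-152325745, plus strand): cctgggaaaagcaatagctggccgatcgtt
Rps27l (chr9:66946076-66946105, plus strand): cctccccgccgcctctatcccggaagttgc
Rps27 (chr3:90213629-90213658, minus strand): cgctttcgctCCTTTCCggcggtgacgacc
Rps27rt (chr9:114982720-114982749, minus strand): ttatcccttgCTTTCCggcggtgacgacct
Rpl38 (chr11:114668570-114668599, plus strand): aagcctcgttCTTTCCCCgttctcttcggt
Rps15a (chr7:118116128-118116157, minus strand): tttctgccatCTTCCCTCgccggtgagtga
Rps15 (chr10:80292421-80292450, plus strand): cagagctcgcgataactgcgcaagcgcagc
Rpl12 (chr2:32961702-32961731, plus strand): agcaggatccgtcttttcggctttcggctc
Rpl35 (chr2:39005112-39005141, minus strand): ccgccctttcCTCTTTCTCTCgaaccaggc
Rpl15 (chr14:18270967-18270996, minus strand): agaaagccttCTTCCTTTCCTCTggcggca

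Rpl22 and Rps27l each have another annotated start in the table, also without such a tract. A start of C and at least 4 pyrimidines was annotated for 13 of the 63 members (20.6%), against 3.01% of 27025 gene symbols. Allowing at least 6 pyrimidines after a C anywhere within 20 bases of the start, a window chosen after seeing the data, it was 54.0% of members and 21.4% of all symbols. In the 300 bases of the promoter windows (250 before and 50 from the start, both strands), GGGCGG was present for 60.3% of members and 38.2% of all symbols, and CCGGAAG for 38.1% and 9.93%. AAGATGGCG was found for 6.35% of members and 1.64% of all symbols, and TATAAA for 9.52% and 15.7%. None of these 4 motifs contains another. A match describes letters in the annotated window only.

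Ribosomal protein genes took the smallest share of UMIs in beta cells, and this depended on what else the cells held. Summed over the 83 members, their share of all UMIs was 11.1% in alpha cells of the library labelled BcBKO and 10.7% in those of the flox/flox library. In delta cells it was 8.29% in the library labelled BcBKO and 8.26% in the flox/flox library, and in endothelial cells 10.3% and 10.1% in the same order of libraries. Mural cells had 8.84% in the library labelled BcBKO and 7.68% in the flox/flox library, and macrophages 15.6% in the library labelled BcBKO and 14.7% in the flox/flox library. In beta cells it was 3.40% in the library labelled BcBKO and 3.07% in the flox/flox library, below every other class in both libraries. Hormone genes took 68.2% of beta UMIs in the library labelled BcBKO and 70.0% in the flox/flox library, but 4.94% to 7.04% in the endothelial, mural and macrophage classes, which are not known to make these hormones.

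Without hormone and mitochondrial genes in the total, the beta share was no longer the lowest. It was then 11.7% in the library labelled BcBKO and 11.1% in the flox/flox library, above the mural share (9.89% in the library labelled BcBKO and 8.58% in the flox/flox library) and close to the endothelial share (11.4% in the library labelled BcBKO and 10.9% in the flox/flox library). Alpha cells were highest on this scale, at 18.9% in the library labelled BcBKO and 19.1% in the flox/flox library. Macrophages followed, at 17.3% in the library labelled BcBKO and 15.9% in the flox/flox library, and delta cells had 13.1% in the library labelled BcBKO and 12.8% in the flox/flox library. The widest exact binomial interval was 9.82% to 9.96%, for mural cells of the library labelled BcBKO. In UMIs per cell, the median was highest in alpha cells (1278 in the library labelled BcBKO and 1619 in the flox/flox library) and lowest in mural cells (301 in the library labelled BcBKO and 336 in the flox/flox library). Beta cells had 1099.5 in the library labelled BcBKO and 1170.5 in the flox/flox library, but they had to hold at least 10000 UMIs, while other classes had to hold 1000.

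**Figure D1:**
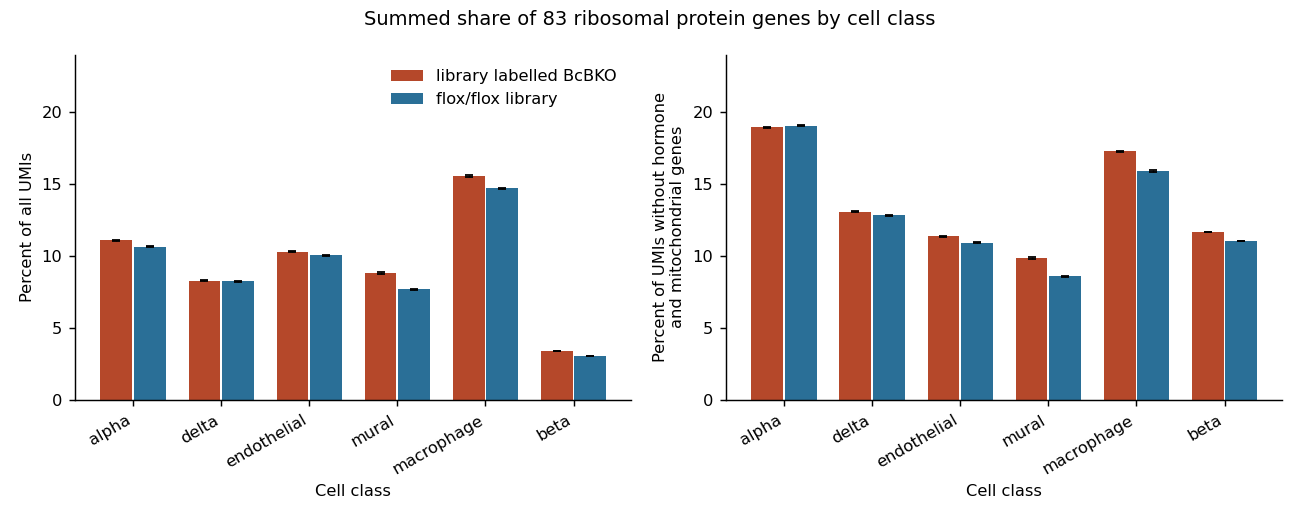
Summed share of the 83 ribosomal protein genes by cell class (x axis), as percent of all UMIs (left) and of UMIs without hormone and mitochondrial genes (right); bars are 1 library each and error bars are exact 95% binomial intervals. Beta cells stand at 3.40% and 3.07% on the left, below all other classes, and at 11.7% and 11.1% on the right, above mural cells.

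The small subunit took a smaller part of the ribosomal protein UMIs in beta cells than in macrophages. Rps symbols made up 49.0% in macrophages of the library labelled BcBKO and 48.5% in those of the flox/flox library, and 47.5% and 46.9% in endothelial cells of the library labelled BcBKO and the flox/flox library. In beta cells they made up 43.5% in the library labelled BcBKO and 43.3% in the flox/flox library. The other classes lay between 44.4% and 46.0%.

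Among beta cells, the share of all UMIs fell as the insulin gene share rose, while the share without hormone and mitochondrial genes changed little. Beta cells of each library were put in 5 groups of equal size by their insulin gene share. In the library labelled BcBKO the summed share was 4.49% in the group with the lowest insulin share and 2.88% in that with the highest. In the flox/flox library the values were 3.90% and 2.59%. The share without hormone and mitochondrial genes lay between 11.4% and 12.04% in the library labelled BcBKO and between 10.996% and 11.2% in the flox/flox library. Median ribosomal protein UMIs per cell lay between 1084.5 and 1118 in the library labelled BcBKO and between 1133.5 and 1200.5 in the flox/flox library. The first of these relations is in part arithmetic, since insulin UMIs are in the total.

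**Figure D2:**
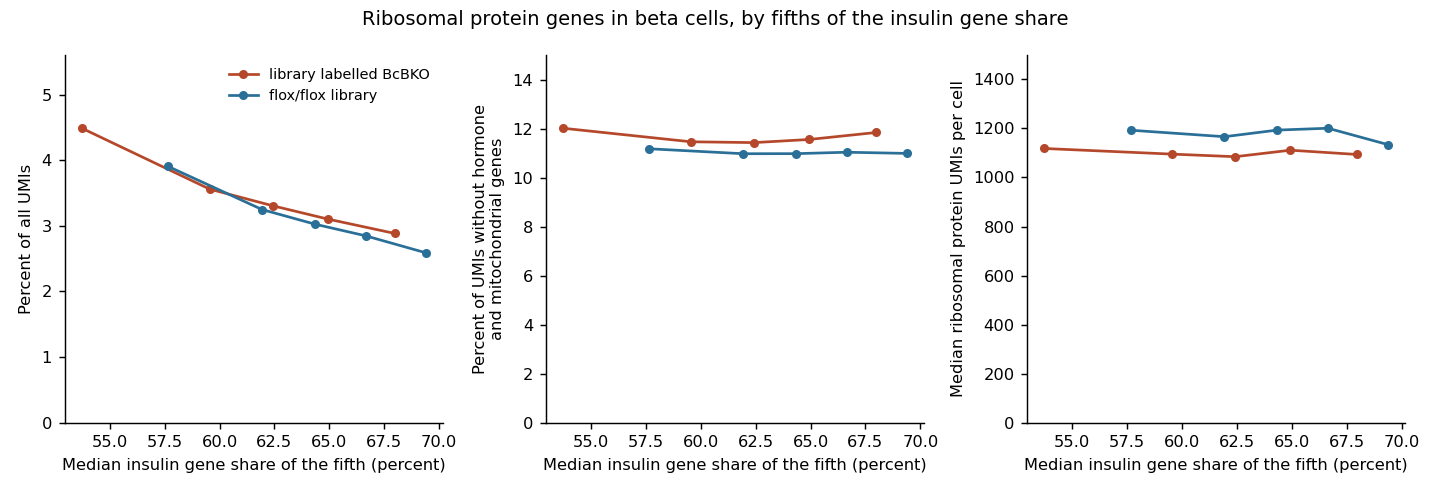
Ribosomal protein genes in beta cells put in 5 groups by insulin gene share (x axis, median percent of UMIs in the group), as percent of all UMIs (left), percent of UMIs without hormone and mitochondrial genes (middle) and median UMIs per cell (right); points are groups of cells and colours are libraries. The left curves fall, to 2.88% in the library labelled BcBKO and 2.59% in the flox/flox library, while the middle and right curves stay nearly level.

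Alpha cells held a group with few ribosomal protein UMIs. Their share without hormone and mitochondrial genes was under the class median divided by 2 in 42 alpha cells (6.62%) of the library labelled BcBKO and in 57 (15.1%) of the flox/flox library. In the other classes this held for 0.0727% to 3.79% of cells. These alpha cells had a median of 3255.5 UMIs in the library labelled BcBKO and 4170.0 in the flox/flox library, against 11582.5 and 14994 in the other alpha cells of the same libraries. Mitochondrial genes took 10.5% of their UMIs in the library labelled BcBKO and 8.32% in the flox/flox library, against 2.90% and 2.54% in the other alpha cells. The nuclear RNA Malat1 took 5.18% in the library labelled BcBKO and 4.82% in the flox/flox library, against 1.62% and 1.53%. The part of these cells in the alpha values was not tested.

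To compare classes gene by gene, the 12 sums were fitted with edgeR's quasi-likelihood model with TMM scaling, library as a block, and each class contrasted with beta. The 2 libraries are the only replicates of a class and carry different genotype labels. With library as a block, p-values rest on how far class differences vary between these 2 libraries, pooled over the classes. A difference between the libraries common to all classes is taken out. Genes were called at an adjusted p under 0.05 over all 13642 genes tested, among them 81 members; Rpl10l and Rpl39l had too few UMIs. Median UMIs per cell lay between 3611 and 13884 in the other classes, against 33171.5 and 38461.5 in beta cells of the library labelled BcBKO and the flox/flox library, and the median insulin gene share of the other classes lay between 1.91% and 6.21%. Ppy, the hormone gene of PP cells, stood at 52985 CPM (BcBKO) and 50330 CPM (flox/flox) in delta cells and at 26672 CPM (BcBKO) and 30890 CPM (flox/flox) in alpha cells. The part of depth, of beta cell RNA and of PP cells in these contrasts was not tested. Ribosomal protein mRNAs stood above beta in alpha cells and macrophages as a group. In alpha cells 76 of 81 members were called higher (22.2% of all genes) and 1, Rpl7l1, lower (24.9% of all genes), with a median log2 fold change of 0.93 for members and −0.03 for all genes. In macrophages 75 were called higher (31.5% of all genes) and 2, Rpl36al and Rps19bp1, lower (33.5% of all genes), with medians of 1.497 for members and −0.13 for all genes. In endothelial cells 59 were called higher (38% of all genes) and 6 lower (35.3% of all genes), with medians of 0.43 and 0.05.

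In delta and mural cells members were called in both directions. In delta cells 21 members were called higher (18.8% of all genes) and 7 lower (21.4% of all genes), with a median of 0.14 for members and −0.05 for all genes. In mural cells 11 were called higher (27.4% of all genes) and 20 lower (26.4% of all genes), with medians of −0.04 and −0.05. DESeq2 called 35 higher in delta cells and 23 in mural cells.

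The calls followed the scaling. With totals without hormone and mitochondrial genes, endothelial cells had 19 members called higher and 20 lower, mural cells 5 and 41, delta cells 37 and 4, and macrophages 61 and 9, and with total UMIs 78 to 80 members were called higher in each contrast. These scalings moved the median of all genes by −0.99 to 1.45. A change of scaling shifts the genes of a contrast nearly alike, so the median of members less that of all genes hardly depends on it. With TMM scaling this difference was 0.96 in alpha, 0.19 in delta, 0.38 in endothelial, 0.01 in mural and 1.63 in macrophage cells. In mural cells it was −0.04 with DESeq2. Without the filter on low counts it was 0.24 in mural cells. With cells of several classes kept, it was 0.19 in mural cells, 0.25 in endothelial cells, 0.85 in alpha cells and 1.27 in macrophages.

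Within the set, members were called in both directions in each contrast. The same model was fitted with the summed ribosomal protein UMIs as library size, so that a gene is compared with the rest of the set and no direction of the set can be read. Relative to the sum, alpha cells had 19 members called higher than in beta cells (5.37% of all genes) and 16 lower (71.5%), and delta cells 8 higher (14.4%) and 12 lower (25.4%). Endothelial cells had 24 higher (27.5%) and 20 lower (47.1%), mural cells 25 higher (29.6%) and 16 lower (22.6%), and macrophages 20 higher (13.5%) and 30 lower (71%). Of the members, 9.88% were called higher and 14.8% lower in delta, 29.6% and 24.7% in endothelial and 30.9% and 19.8% in mural cells. In these classes the shares of members were near those of all genes or below them. In alpha cells and macrophages most other genes stood lower relative to the sum. The 5 contrasts share the same 2 beta sums, so the values of a gene over them are not independent.

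Rpl36al, an autosomal copy of the X-linked gene for the large-subunit protein eL42, had the lowest value of the members drawn in the plot of relative changes in endothelial, mural and macrophage cells. It made up 0.593% and 0.594% of ribosomal protein UMIs in alpha cells of the library labelled BcBKO and the flox/flox library, 0.319% and 0.307% in their endothelial cells and 0.315% and 0.308% in their macrophages. In beta cells it made up 1.26% in the library labelled BcBKO and 1.29% in the flox/flox library. Both beta values stood above all 10 values of the other classes. The log2 fold change against beta was −1.10 ± 0.09 (SE) in alpha cells, −0.67 ± 0.09 in delta cells, −2.03 ± 0.10 in endothelial cells, −1.48 ± 0.10 in mural cells and −2.03 ± 0.10 in macrophages. Here and below, the SE was derived as the size of the log2 fold change divided by the square root of edgeR's F statistic. The adjusted p (edgeR) lay between 5.39e-11 in endothelial cells and 4.69e-05 in delta cells.

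Rpl41 and Rpl38 also weighed more in beta cells. Rpl41 made up 2.70% and 2.64% of ribosomal protein UMIs in alpha cells of the library labelled BcBKO and the flox/flox library and 1.56% and 1.55% in their macrophages. In beta cells it made up 4.14% in the library labelled BcBKO and 3.93% in the flox/flox library. Its log2 fold change was −0.60 ± 0.07 in alpha cells and −1.37 ± 0.08 in macrophages (edgeR adjusted p 4.17e-06 and 3.24e-10). Rpl38, whose protein is known in mouse embryos for its role in translating Hox mRNAs, fell by 1.05 ± 0.07 on the log2 scale in endothelial cells against beta cells (adjusted p 5.74e-09). It made up 1.17% in endothelial cells of the library labelled BcBKO and 1.22% in those of the flox/flox library, against 2.43% and 2.53% in beta cells of the same libraries.

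Rps12, whose protein sits in the head of the small subunit, and Rps15a, also of the small subunit, weighed less in beta cells than in every other class. Rps12 made up 1.47% and 1.19% in macrophages of the library labelled BcBKO and the flox/flox library, against 0.876% and 0.790% in their beta cells. Its log2 fold change ran from 0.31 ± 0.09 in delta cells (edgeR adjusted p 0.00979) to 0.67 ± 0.09 in macrophages (3.27e-06). The macrophage and beta values did not overlap, although Rps12 also differed between the libraries. Rps12 has 24 named pseudogene copies, so its counts are less certain. Rps15a ran from 0.20 ± 0.08 in endothelial cells (adjusted p 0.0265) to 0.35 ± 0.08 in alpha cells (0.000858).

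The small-subunit genes Rps9, Rps29 and Rps12 were among the 5 members with the highest values in macrophages. Relative to the sum, Rps9, of the mRNA entry site, rose by 0.82 ± 0.08 (log2) and Rps29 by 0.73 ± 0.07 against beta cells (edgeR adjusted p 1.64e-07 and 6.38e-08). Rps9 made up 2.03% in macrophages of the library labelled BcBKO and 2.06% in those of the flox/flox library, against 1.16% and 1.15% in beta cells of the same libraries. In alpha cells its log2 fold change was 0.01 (adjusted p 0.926). Rps29, the most abundant member, made up 4.76% in macrophages of the library labelled BcBKO and 4.85% in those of the flox/flox library, against 2.91% and 2.87% in their beta cells. In endothelial cells Rps19 (0.68 ± 0.08, adjusted p 1.77e-06), Rps12 and Rps16 (0.63) were among the 5 highest.

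In alpha cells the highest were Rpl13 (0.42 ± 0.07), Rps12, Rps3a1 (0.37), Rpl14 (0.36) and Rps15a. In delta cells they were Rps12, Rpl35a (0.30), Rps15a, Rpl34 (0.26) and Rpl23a, which at 0.27 did not pass (adjusted p 0.0882). In mural cells Rps16 (0.70), Rpl23a (0.64), Rpl22 (0.60) and Rpl21 (0.52) were highest after Rpl3l, and Rpl41 (−0.77), Rpl38 (−0.74), Rps6 (−0.52), the substrate of the S6 kinases, and Rpl11 (−0.44), whose protein binds Mdm2, were lowest after Rpl36al. Rps2 was among the lowest in delta cells (−0.55 ± 0.08, adjusted p 7e-05). With a floor of 10000 UMIs for every class, which leaves too few mural cells and macrophages, 0 members were called higher and 6 lower in alpha cells, 0 and 2 in delta cells and 5 and 7 in endothelial cells.

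**Figure D3:**
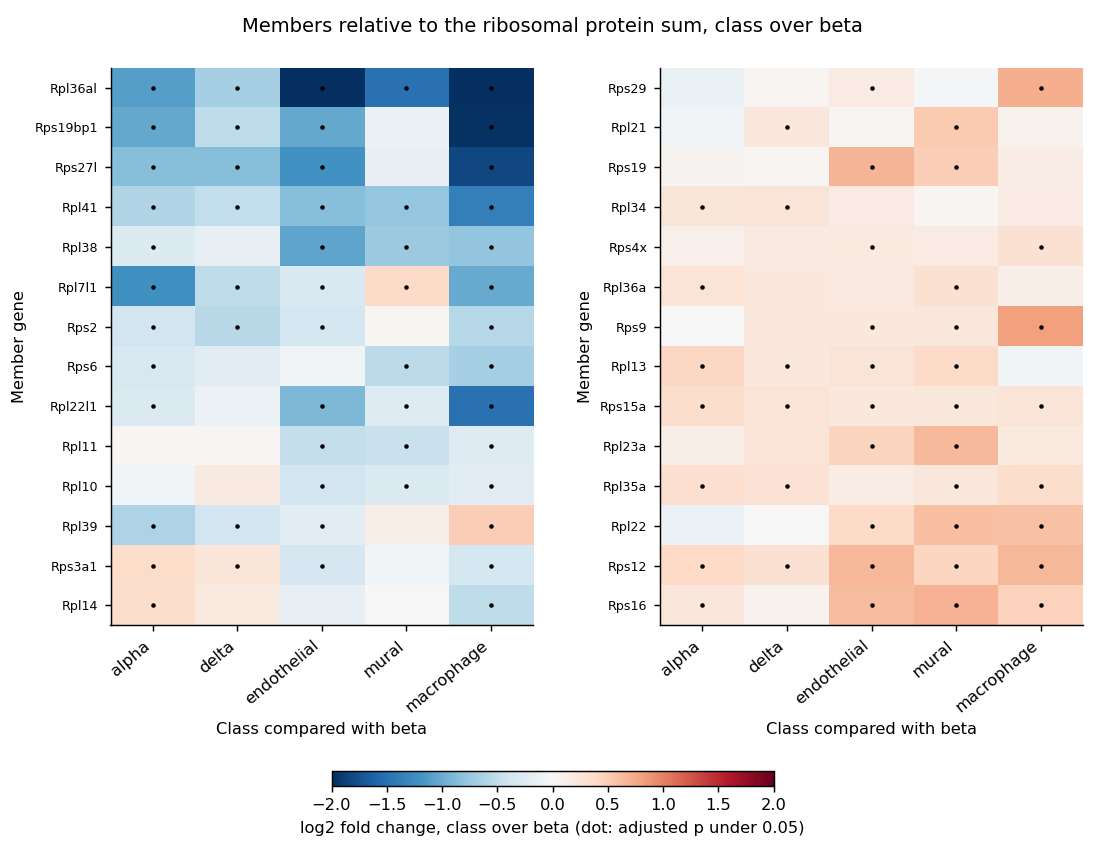
Log2 fold change of 28 members relative to the ribosomal protein sum in 5 classes (columns) against beta cells, limited to members named in the text that reached 20 CPM, with colours cut at 2; a dot marks an adjusted p under 0.05 (edgeR). Rpl36al, at the top left, is blue in all 5 columns and reaches −2.03, and Rps12 is red in all 5; the columns share the same 2 beta sums.

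Paralog pairs were used in different proportions in the classes. The share of the paralog in the summed UMIs of the pair was highest for Rpl36al in beta cells, where it was 69.2% in the library labelled BcBKO and 70.1% in the flox/flox library. In alpha cells it was 46.9% in the library labelled BcBKO and 47.0% in the flox/flox library, and in delta cells 56.1% and 54.9% in the same libraries. In endothelial cells it was 33.2% and 33.0%, in mural cells 40.5% and 39.5% and in macrophages 33.8% and 33.7%, in the library labelled BcBKO and the flox/flox library. The autosomal copy was thus the larger part of the pair in beta and delta cells of both libraries and the smaller part elsewhere, and the beta values stood above those of every other class.

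Rpl22l1, whose mRNA is known in mouse to be repressed by the protein of its partner Rpl22, took 59.1% of the pair in beta cells of the library labelled BcBKO and 59.7% in those of the flox/flox library. It took 55.0% and 58.3% in alpha cells and 56.7% and 57.9% in delta cells of the library labelled BcBKO and the flox/flox library. It took 36.4% and 38.9% in endothelial cells, 42.1% and 47.5% in mural cells and 24.6% and 27.0% in macrophages of the same libraries. Relative to the sum, Rpl22l1 fell by 0.90 ± 0.09 on the log2 scale in endothelial cells and by 1.49 ± 0.10 in macrophages against beta cells (edgeR adjusted p 5.3e-07 and 1.85e-09), by 0.28 ± 0.09 in alpha cells (0.0131) and by 0.25 ± 0.10 in mural cells (0.0408), while delta cells had −0.12 (0.362). Rpl22 itself rose by 0.38 ± 0.09 in endothelial cells and 0.58 ± 0.09 in macrophages (adjusted p 0.00207 and 3.95e-05).

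Rps27l, a known target of p53, took 29.0% of its pair with Rps27 in beta cells of the library labelled BcBKO and 23.1% in those of the flox/flox library. Mural cells were next, at 25.1% in the library labelled BcBKO and 20.8% in the flox/flox library, and overlapped the beta values. Macrophages were lowest, at 9.94% in the library labelled BcBKO and 8.03% in the flox/flox library. Alpha cells had 18.5% in the library labelled BcBKO and 14.997% in the flox/flox library, delta cells 15.4% and 13.8%, and endothelial cells 11.3% and 10.1%. The share was higher in the library labelled BcBKO in all 6 classes, but its counting intervals overlapped in delta, endothelial and mural cells. In endothelial cells the level of Rps27l itself was 208 CPM in the library labelled BcBKO and 209 CPM in the flox/flox library. Relative to the sum, Rps27l fell by 1.81 ± 0.11 on the log2 scale in macrophages against beta cells (edgeR adjusted p 1.44e-09), and mural cells had −0.17 (adjusted p 0.235).

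The other copies were minor. Rpl7l1 took 2.33% to 7.70% of its pair with Rpl7, lowest in alpha and highest in mural cells. Rps27rt took 2.02% to 2.75% of its pair with Rps27 and Rpl6l 0.721% to 1.86% of its pair with Rpl6, but 82.9% and 100% of the 31-base words in the last 200 bases of these copies occur in their partners, so their counts are uncertain. The Rpl36al, Rpl22l1, Rps27l and Rpl7l1 transcripts shared no such word with their partners. Rpl3l, which replaces Rpl3 in striated muscle, had 2 UMIs in 2 of 163 mural cells of the library labelled BcBKO and 9 UMIs in 7 of 223 mural cells of the flox/flox library. Its fitted log2 value of 5.85 in mural against beta cells (adjusted p 0.000399) rests on these UMIs and is no bound. Rpl10l and Rpl39l, known from testis, had 0 UMIs and 12 UMIs in the 12 sums. The 0 for Rpl10l holds for all barcodes, which allows a share of barcodes with a UMI of up to 0.0278% in the library labelled BcBKO and 0.0318% in the flox/flox library.

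**Figure D4:**
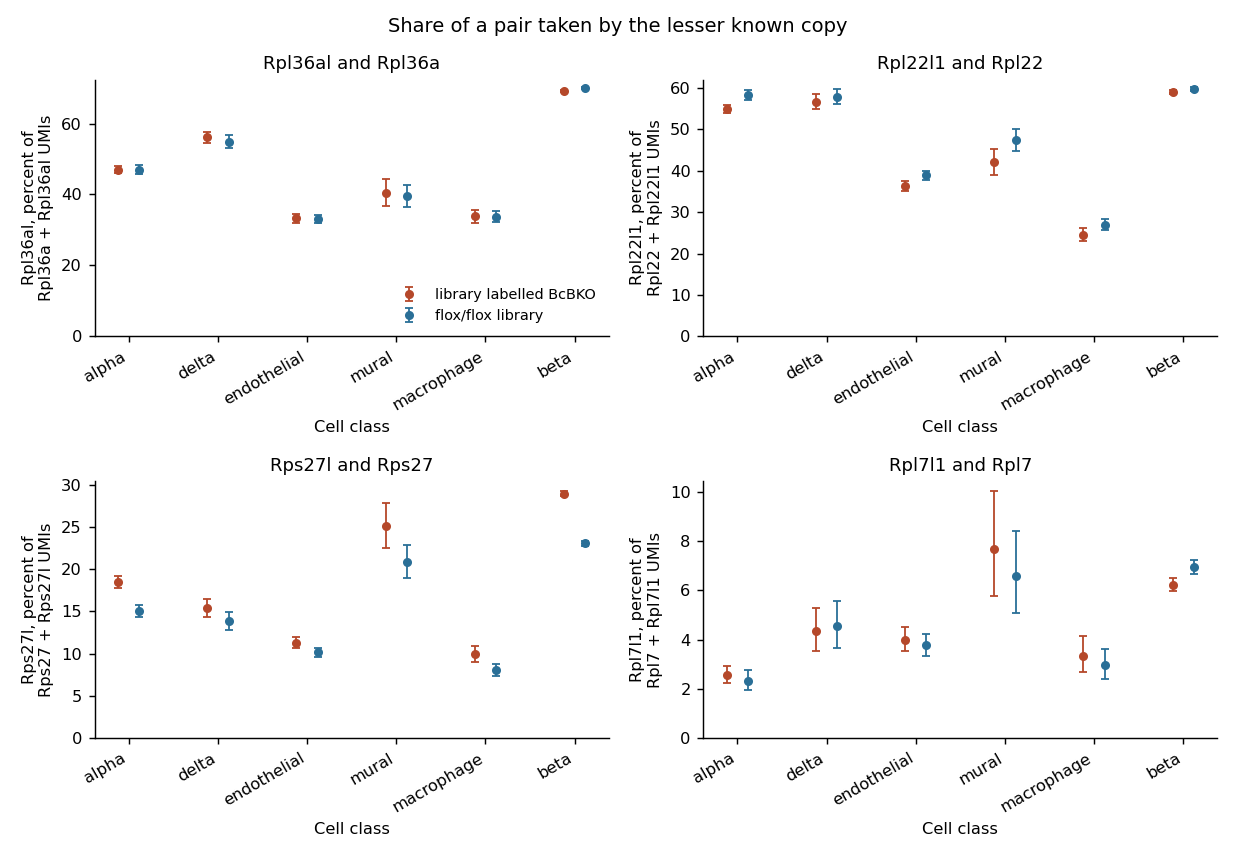
Share of the paralog in the UMIs of its pair (y axis, percent) by cell class (x axis) for Rpl36al, Rpl22l1, Rps27l and Rpl7l1; points are libraries and error bars are exact 95% binomial intervals. Rpl36al stands at 69.2% and 70.1% in beta cells and at 33.0% to 56.1% in the other classes. The share of Rps27l in its pair is higher in the library labelled BcBKO in every class, with overlapping intervals in delta, endothelial and mural cells.

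Between the libraries, the members' median log2 ratio lay between 0.01 and 0.21 in the 6 classes, and some single genes lay above or below 0 in all of them. Levels were set side by side as the log2 ratio of CPM + 1, library labelled BcBKO over flox/flox, for the genes that reached 20 CPM in a class in one library or the other. In beta cells 8 of 76 members stood higher by at least 0.25, a 1.19-fold ratio (5.82% of all genes), and 0 lower by as much (1.8% of all genes). The median was 0.15 for members and 0.06 for all genes, and 73 members were above 0 (71.1% of all genes). In mural cells 33 of 79 stood higher (25% of all genes) and 0 lower (26.5%), and 73 were above 0 (49.6%), with a median of 0.21 for members and −0.00 for all genes. The unused mural markers summed to 4725 CPM in mural cells of the library labelled BcBKO and 6177 CPM in those of the flox/flox library, and with cells of several classes kept the members' median in mural cells was 0.05.

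In the other 4 classes the members' median lay between 0.01 and 0.09. In alpha cells 7 of 79 members stood higher (18.2% of all genes) and 1 lower (2.77%), and 63 were above 0 (73.1%), with medians of 0.06 for members and 0.10 for all genes. With TMM scaling the members' median was −0.05 and with totals without hormone and mitochondrial genes −0.01. In delta cells 5 stood higher (12.2%) and 2 lower (15.2%), and 42 were above 0 (46.9%), with medians of 0.01 for members and −0.02 for all genes. In endothelial cells 8 stood higher (8.03%) and 1 lower (9.3%), and 54 were above 0 (50.6%), with medians of 0.03 for members and 0.00 for all genes. In macrophages 8 stood higher (12.1%) and 1 lower (23.7%), and 67 were above 0 (42.6%), with medians of 0.09 for members and −0.05 for all genes.

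Rps15 stood highest or next to highest in 4 of the 6 classes. Rps15, whose protein is in the head of the small subunit, had 188 CPM in beta cells of the library labelled BcBKO and 138 CPM in those of the flox/flox library, a log2 ratio of 0.45. It had 600.5 CPM in alpha cells of the library labelled BcBKO and 425 CPM in those of the flox/flox library. In endothelial cells the library labelled BcBKO had 721 CPM and the flox/flox library 487 CPM. In all 6 classes its log2 ratio lay between 0.42 and 0.62, and the counting intervals of the libraries did not overlap. Rpl12, of the base of the stalk that recruits elongation factors, had 249.9 CPM in beta cells of the library labelled BcBKO and 195 CPM in those of the flox/flox library, and log2 ratios between 0.24 and 0.65. Rpl23a had 60.4 CPM in beta cells of the library labelled BcBKO and 46.5 CPM in those of the flox/flox library, and log2 ratios between 0.28 and 0.51. Rpl13a (0.29 to 0.46), Rps25 (0.25 to 0.49) and Rps12 (0.21 to 0.46) were also higher in the library labelled BcBKO in all 6 classes.

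Rpl15 stood lowest in 5 of the 6 classes. It had 91.7 CPM in beta cells of the library labelled BcBKO and 100.6 CPM in those of the flox/flox library. In alpha cells it had 257 CPM in the library labelled BcBKO and 317 CPM in the flox/flox library, and in macrophages 277 CPM and 335 CPM in the same libraries. Its log2 ratio lay between −0.30 in alpha cells and −0.13. Rps27 was also below 0 in all 6 classes (−0.18 to −0.03), and Rpl35 in 5 of 6, with −0.31 in delta cells. Rps19bp1 was highest in mural cells (0.70) and macrophages (0.66), on 33 UMIs in mural cells of each library and 43 and 36 UMIs in macrophages of the library labelled BcBKO and the flox/flox library.

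Of the 76 members that could be compared in all 6 classes, 36 (47.4%) were above 0 in all of them and 2 (2.63%) below 0, against 7.03% and 3.18% of the 2261 genes that could be compared. These signs are on total UMIs and depend on the scaling. The members' median in alpha cells was 0.06 here but −0.05 with a TMM factor. The compared genes needed only 20 CPM, against a median of 1320 CPM for core members, and counting error turns signs more easily at low levels. The part of level in these counts was not tested. Pearson's r of the log2 ratios across these 76 members lay between 0.73 and 0.90 for the 15 pairs of classes, as a description with no p, since genes are not independent and all classes of a library share pool, preparation and run. The genotype label and these shared steps cannot be told apart. Markers of other cells also differed between the libraries. The 5 acinar markers, all above 0 in every sum, summed to 18.9 to 188 CPM over the classes of the library labelled BcBKO, against 118 to 1457 CPM over those of flox/flox, and were lower in the library labelled BcBKO in all 6 classes. The 2 erythroid markers summed to 34.5 to 6860 CPM over the same classes of BcBKO, against 16.5 to 3220 CPM for flox/flox, and were higher in the library labelled BcBKO in 5 classes, while macrophages had 53.8 CPM (BcBKO) and 1316 CPM (flox/flox). Ppy in macrophages was 9730 CPM (BcBKO) and 391 CPM (flox/flox). The part of these markers in the ratios was not tested.

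**Figure D5:**
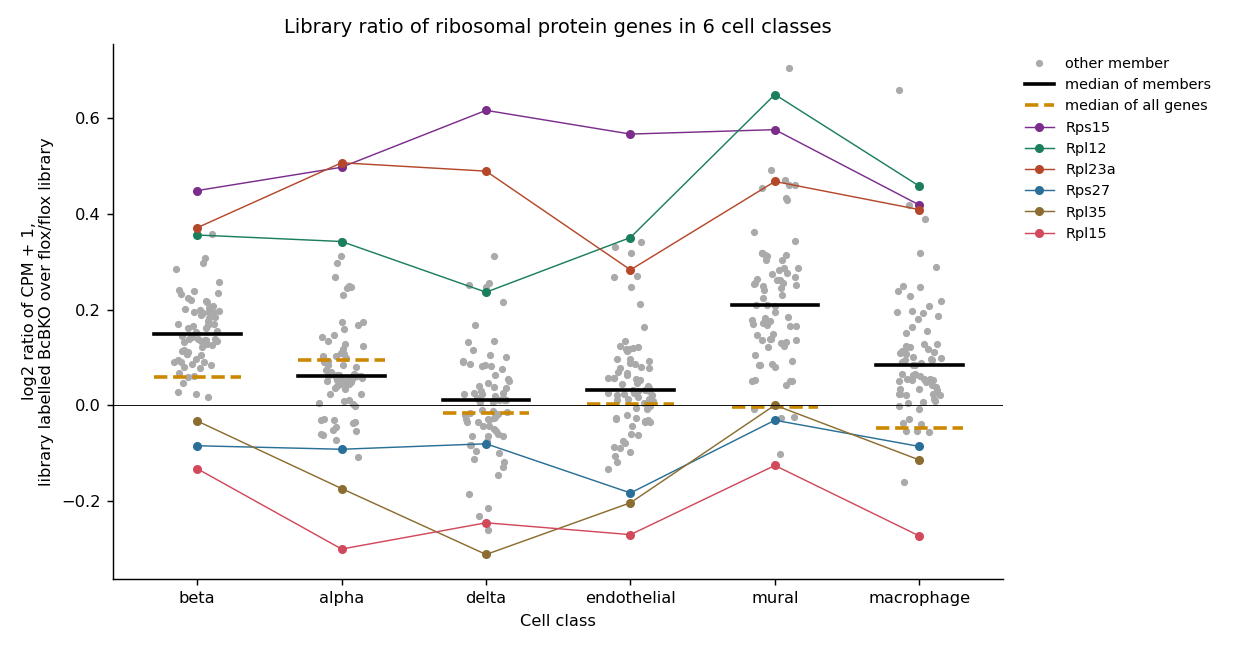
Log2 ratio of CPM + 1, library labelled BcBKO over flox/flox (y axis), by cell class (x axis); grey points are members with at least 20 CPM in either library, coloured lines follow named members, and horizontal bars are medians of members (black) and of all genes (dashed). Rps15 stays between 0.42 and 0.62 and Rpl15 between −0.30 and −0.13 in all 6 classes.

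Ribosomal proteins with other symbols and elongation factors were called mostly higher in alpha cells and macrophages. Of all genes, 22.2% were called higher and 24.9% lower in alpha cells, 18.8% and 21.4% in delta, 38% and 35.3% in endothelial, 27.4% and 26.4% in mural and 31.5% and 33.5% in macrophage cells. Against beta cells, with TMM scaling, all 5 of Rplp0, Rplp1, Rplp2, Rpsa and Fau, ribosomal proteins named otherwise, were called higher in alpha cells and in macrophages, and 3 of the 5 in endothelial cells. In delta cells 0 were called higher and 1 lower, and in mural cells 1 and 2. Fau, a ubiquitin-like fusion, had the largest value, 2.42 in macrophages, and Rplp1, of the stalk, had 1.14 in alpha cells. Of 16 elongation factors and other mRNAs known to start with pyrimidines, 16 were called higher in alpha cells, 15 in macrophages, 13 in endothelial cells, 4 in mural cells and 2 in delta cells, with 0, 0, 0, 3 and 2 called lower. The delta and mural counts are below the shares of all genes. Examples were the elongation factor gene Eef1b2 (1.17) and Npm1 (1.15), a nucleolar protein, in alpha cells, Tpt1 (1.006) in endothelial cells and the poly(A)-binding protein gene Pabpc1 (1.93) in macrophages. With totals without hormone and mitochondrial genes, endothelial cells had 3 of the 16 called higher and 3 lower and macrophages 8 and 4.

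Genes that build or control ribosomes were called in both directions, as were all genes, and their counts depended on the scaling. Of 23 ribosome biogenesis genes tested, 8 were called higher and 3 lower in alpha cells, 1 and 6 in delta, 13 and 3 in endothelial, 5 and 1 in mural and 10 and 3 in macrophage cells. With totals without hormone and mitochondrial genes these counts turned to 3 and 6 in alpha cells, 4 and 6 in endothelial cells and 3 and 14 in macrophages. Nop10, of the small nucleolar particles that modify ribosomal RNA, was lower in alpha cells (−1.02), and Ncl, nucleolin, higher in macrophages (1.85). Of 17 genes of growth control, 5 were called higher and 1 lower in alpha, 0 and 5 in delta, 7 and 6 in endothelial, 4 and 3 in mural and 7 and 4 in macrophage cells. Eif4ebp1, which binds and blocks the cap-binding factor eIF4E, was lower in alpha (−1.77) and delta cells (−2.67), and Myc was higher in macrophages (2.76) and lower in endothelial cells (−2.66). Myc levels were low in endothelial cells, at 3.05 CPM (BcBKO) and 1.38 CPM (flox/flox). In macrophages the libraries differed, at 38.6 CPM (BcBKO) and 81.9 CPM (flox/flox). Of 18 initiation factor genes, 3 were called higher and 7 lower in alpha, 0 and 9 in delta, 5 and 4 in endothelial, 3 and 6 in mural and 7 and 6 in macrophage cells. With totals without hormone and mitochondrial genes, growth control had 3 and 4 in alpha, 3 and 9 in endothelial and 3 and 10 in macrophage cells, and initiation 2 and 12 in alpha, 1 and 13 in endothelial and 1 and 17 in macrophage cells.

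Genes of the mitochondrial ribosome, which translates the mRNAs of mitochondrial DNA, were called lower more often than higher in alpha, delta and endothelial cells. Of 76 Mrpl and Mrps genes tested, 2 were called higher and 37 lower in alpha cells against beta cells, 3 and 39 in delta, 13 and 43 in endothelial, 11 and 18 in mural and 14 and 28 in macrophage cells. In mural cells and macrophages the lower calls were near the shares of all genes. Their median was −0.27, −0.32, −0.33, −0.03 and −0.17 in those 5 contrasts, and less the median of all genes it was −0.24, −0.27, −0.38, 0.02 and −0.03. The direction depends on the scaling: with total UMIs, 50 to 74 of the 76 were called higher and 0 to 3 lower. Mrps14 in alpha cells (−1.28) and Mrps12 in endothelial cells (−1.59) were the lowest there, and Mrps6 in mural cells (2.32) and Mrpl52 in macrophages (1.27) the highest.

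The 4 X-linked members had no common direction. Relative to the ribosomal protein sum, Rpl39 fell by 0.62 ± 0.08 on the log2 scale in alpha cells and rose by 0.50 ± 0.08 in macrophages against beta cells (edgeR adjusted p 4.19e-06 and 2.67e-05). Rpl10, of the peptidyl transferase region, fell by 0.38 ± 0.09 in endothelial cells (0.0012), Rps4x rose by 0.30 ± 0.08 in macrophages (0.00163), and Rpl36a, the partner of Rpl36al, rose by 0.27 ± 0.09 in alpha cells (0.0146). Rps19bp1 fell by 1.97 ± 0.17 in macrophages (3.34e-08), at 0.0155% and 0.0101% of ribosomal protein UMIs in the library labelled BcBKO and the flox/flox library, against 0.0485% and 0.0499% in their beta cells.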

How the data were processed

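Gene counts were UMI counts per barcode in 1 deposited matrix per library. Per the submitters' processing notes, the authors used Cell Ranger 3.1.0, Seurat 4.0.0 and the mm10 build, and the matrix headers name another Cell Ranger release. No cell annotation was used. The members and lists were chosen with earlier results of these data known.

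Barcodes with at least 500 genes, 1000 UMIs and at most 20% mitochondrial UMIs were kept. Beta cells needed insulin genes at 25% of UMIs or more, 10000 UMIs and Gcg, Sst and Ppy each under 1%. Alpha cells needed Gcg at 10%, delta cells Sst at 5%, endothelial cells 3 UMIs summed over Plvap and Cdh5, mural cells 5 over Rgs5 and Pdgfrb and macrophages 5 over C1qa and C1qb, all with insulin genes under 15%. Doublets were not removed beyond leaving out cells that met several rules (595 in the library labelled BcBKO and 629 in the flox/flox library); Scrublet, with an expected rate of 8%, marked 2.08% and 2.25% of cells in these libraries.

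Raw UMIs were summed per class and library and tested with edgeR 4.0.16 (R 4.3.3; quasi-likelihood, filterByExpr, library as a block, Benjamini-Hochberg over all genes), after the scripts were tested on simulated data. Library ratios, shares and paralog shares carry no test; intervals are exact binomial or Poisson and cover counting error only. Alternatives were DESeq2 1.42.0, other scalings, no filter on low counts, no library block, 10000 UMIs for every class, Scrublet calls removed, a mitochondrial limit of 10%, other pseudocounts (0.1 and 10 CPM), each library alone and, added after seeing the data, cells of several classes kept.

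Named genes are the 5 highest and 5 lowest members by level and by change relative to the ribosomal protein sum in each contrast, the 5 highest and 5 lowest library ratios in beta cells (2 and 2 in other classes), all paralogs, X-linked members, Rps19bp1, and genes from the 2 highest and 2 lowest of each other list. Coordinates of genes are from GENCODE M21 and of start sites from RefSeq, both GRCm38. Members whose log2 ratios are given over all 6 classes beyond this rule (Rpl13a, Rps25 and Rps12) were chosen after their values were seen. Some genes that the rule names are not reported here.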

Additional observations from a re-analysis of the deposited data

Results flagged for a closer look

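Among the 16 named pseudogene symbols left out of the members, 3 reached 20 CPM in a class, above the limit that a count of 0 allows there. Rps12-ps3 had its highest level, 92.4 CPM, in macrophages of the library labelled BcBKO, where a count of 0 allows 1.68 CPM and Rps12 itself had 2292 CPM. It had 4399 UMIs in the 12 sums, and its lowest level was 9.91 CPM. Rps26-ps1 had at most 28.0 CPM, also in macrophages of the library labelled BcBKO, on 1122 UMIs in all, against 1629 CPM for Rps26. Rpl27-ps3 had at most 23.99 CPM, in macrophages of the flox/flox library, on 1700 UMIs in all, against 358 CPM for Rpl27. Reads of these copies and of their parent genes were not compared, and all -ps symbols together had 0.107% of the members' UMIs.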

How the results depend on the processing

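The summed share kept its place below all other classes in beta cells on total UMIs. As a mean of both libraries, the share without hormone and mitochondrial genes was 19.01% in alpha, 13.0% in delta, 11.2% in endothelial, 9.24% in mural, 16.6% in macrophage and 11.4% in beta cells. The share of all UMIs was, with cells of several classes kept, 8.78% in delta, 9.98% in mural and 14.2% in macrophage cells, as a mean over cells 10.4% in alpha and 8.38% in delta cells, and with 10000 UMIs for every class 8.03% in delta cells. Members called higher against beta in delta cells numbered 35 with DESeq2, 39 with cells of several classes kept, 10 without the filter on low counts, 80 with total UMIs, 37 with totals without hormone and mitochondrial genes and 0 with 10000 UMIs for every class. In mural cells they numbered 23, 42, 7, 80 and 5 under the first 5 of these. In endothelial cells they numbered 19 with totals without hormone and mitochondrial genes and 13 with 10000 UMIs. Members called lower were 0 in alpha cells with DESeq2, no library block, total UMIs or 10000 UMIs, and 2 with totals without hormone and mitochondrial genes. In delta cells they were 0 with total UMIs, 4 with totals without hormone and mitochondrial genes and 1 with 10000 UMIs. In endothelial cells they were 1 with total UMIs and 20 with totals without hormone and mitochondrial genes. In macrophages they were 1 with DESeq2, 1 without library block, 0 with total UMIs and 9 with totals without hormone and mitochondrial genes, and in mural cells 0 with total UMIs, 41 with totals without hormone and mitochondrial genes and 10 with cells of several classes kept.

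Relative to the ribosomal protein sum, DESeq2 called 26 lower in alpha cells and 22 higher and 21 lower in delta cells, and keeping cells of several classes gave 16 higher in delta cells. With 10000 UMIs for every class, 0 were called higher and 6 lower in alpha, 0 and 2 in delta and 5 and 7 in endothelial cells, while mural cells and macrophages were too few for values. The median library ratio of members with a TMM factor was 0.067 in beta, −0.046 in alpha, 0.030 in delta, 0.0047 in endothelial and 0.12 in macrophage cells. With totals without hormone and mitochondrial genes it was 0.073 in beta, −0.0058 in alpha, 0.034 in delta, 0.052 in endothelial and 0.12 in macrophage cells. As a mean over cells it was 0.14 in beta, 0.11 in alpha, 0.13 in mural and 0.13 in macrophage cells, and with cells of several classes kept 0.052 in mural and 0.065 in macrophage cells. With 10000 UMIs it was 0.024 in alpha, −0.020 in delta and 0.069 in endothelial cells, and without the 20 CPM minimum 0.14 in beta cells. In beta cells, where both stood at 0.02, Rpl27 turned to −0.057 and Rps26 to −0.062 with a TMM factor, and Rpl27 to −0.046 and Rps26 to −0.051 with totals without hormone and mitochondrial genes, and Rpl3l turned to 2.86 in endothelial cells with cells of several classes kept. The cause of these changes was not tested. Among named genes under the alternatives, 299 values of the class tests counted as unchanged and 14 no longer passed the threshold. Another 1 passed it only under an alternative, 12 moved in value and 1 turned. Unchanged meant the same side of the threshold with no turn of a called value. For each library alone, which has no p-value, it meant a value close to the reported one. Of the paralog shares, 67 of 84 moved by less than their spread. Class contrasts had library as a block; between the genotypes no paired analysis was possible because the labels carry no replicate numbers and each genotype is 1 library. Depth limits Rpl3l, Rpl10l, Rpl39l and Rps19bp1.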
